A study of Rattus norvegicus with 22 samples.

Results

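The livers of rats fed with BASE-diet for 14 months (BD 14, 6 rats) were compared with the livers of rats on control diet for 3 months (CD 3, 5 rats). These 11 of the 22 arrays of the series were taken by the diet and the time in their labels. The pair differs in diet and in months of feeding together, so it sets the rats that differ most in the study against each other. All rats were male Sprague–Dawley rats that began their diet at 8 weeks of age, and the rats of BD 14 were therefore also older than those of CD 3. By the methods, BASE-diet held 6% salmon fat in place of most of the lard, 8% linden extract, 8% pumpkin puree and 1% probiotic bacteria. Control diet held none of these. The composition listed in the paper gives a lower share of probiotic, and more rapeseed oil in BASE-diet than in control diet. The remaining groups, BASE-diet for 3 months (BD 3, 5 rats) and control diet for 14 months (CD 14, 6 rats), lie between the pair, and they served here to split each difference into a diet step and a time step.

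Fish fat brings fatty acids that bind the nuclear receptor PPARα, which turns on genes of fatty acid oxidation in hepatocytes, and such fatty acids also restrain the SREBP factors that drive sterol and fatty acid synthesis. Interferon-stimulated genes are switched on through interferon receptors and IRF factors, act against viruses, and are known to be higher in many tissues of old animals. Wnt ligands bind Frizzled receptors together with the co-receptors LRP5 and LRP6, and in the liver they pattern metabolism across the lobule.

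Each array held the Cy5-labelled RNA of 1 rat beside a Cy3-labelled common reference, liver RNA of healthy rats of 10 weeks that were not in the experiment. The labels of all arrays give the dyes in this way. The methods describe the same common reference, with an array for each animal. A later sentence there assigns Cy3 to control rats and Cy5 to rats on BASE-diet instead, and the labels were followed. A value below is the log2 ratio of Cy5 to Cy3 of a probe, and a difference between groups is a difference of mean log2 ratios. A probe is called bright on an array where its Cy5 signal was well above background. Of 30367 probes, 18656 (61.4%) were bright throughout CD 3 or throughout BD 14 and were tested, and they report 12477 genes. They came unevenly from the groups. While 14019 probes were bright on every array of both groups, 4561 were kept through BD 14 alone and 76 through CD 3 alone.

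The arrays of CD 3 varied more in signal than those of BD 14. In Cy5, the share of spots well above background was 93.6, 66.4, 68.8, 52.4 and 66.2% on CD 3 replicates 1 to 5, and its lowest, median and highest values in BD 14 were 69.1, 71.1 and 74.3%. The dimmest array, CD 3 replicate 4, had a median Cy5 signal of 21.8 after background subtraction, and the lowest in BD 14 was 134. By the file headers, all 6 BD 14 arrays lay on 1 slide, which also held 2 CD 14 arrays and no CD 3 array. A slide difference between the pair can therefore be estimated only by way of BD 3 and CD 14. Slide D held 3 arrays each of BD 3 and CD 14, slide E the 6 of BD 14 and 2 of CD 14, slide A 2 of BD 3 and 1 of CD 3, and slide C 1 each of CD 14 and CD 3. The remaining 3 arrays of CD 3, replicates 2, 3 and 4, lay on slide B, which held no other group, so most of CD 3 cannot be told apart from that slide and these arrays do not inform a difference fitted with a slide block. The differences within slides A and C given below thus rest on a single CD 3 array each, and all probes had medians of 0.28 for BD 3 against CD 3 on slide A and −0.01 for CD 14 against CD 3 on slide C. The number of rats and the spread between them, a median residual SD of 0.518 for a probe, limit the precision.

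Limma, fitted to all 4 groups, called 68 probes (0.364% of those tested) in BD 14 against CD 3, with an adjusted threshold of 0.05. Of these, 51 (0.273%) were higher in BD 14 and 17 (0.0911%) were lower. The median of all probes was 0.11 higher in BD 14, with 11151 of 18656 probes higher, and after each array was centred on its median the split was 31 higher and 26 lower. Where probes had to be bright on every array of both groups, it was 7 higher and 5 lower. An unadjusted p under 0.05 was found for 3269 probes (17.5%), 2340 of them higher (12.5%) and 929 lower (4.98%). The differences of the called probes ran from 0.63 to 4.33 among the higher and from −0.81 to −2.87 among the lower. The values of the groups did not overlap for 276 probes (1.48%), and 44 called probes were among them, 29 higher and 15 lower.

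The count of 68 rested on single arrays of CD 3. Without replicate 4 it was 3 and without replicate 3 it was 6, while without replicate 2 it was 1469, without replicate 5 it was 427 and without replicate 1 it was 125. Among the 51 probes that rose, 33 were not bright on every CD 3 array, and 32 of these were dim on replicate 4. Without BD 14 replicate 3 the count was 4, and leaving out any other BD 14 array gave 11 to 19. A slide block brought it to 0, with 1124 probes at an unadjusted p under 0.05, and 67 of the 68 differences kept their sign while their median size went from 1.72 to 1.22. With normexp background correction it went to 0.776, and all 68 kept their sign. The Cy3 reference was bright on every CD 3 and BD 14 array for 40 of the 68, and for the others the size of a ratio is uncertain. The probes that report Lrp5, Isg15 and LOC686921 stayed called whichever array was left out.

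The gene with the smallest adjusted p was Lrp5, which encodes a co-receptor for Wnt ligands. Its probe (A_64_P095068, chr1:206102758-206102817 of rn4, minus strand) read 1.29, 0.54, 1.15, 1.74 and 0.61 on CD 3 replicates 1 to 5. On the BD 14 arrays it read −1.23 at the lowest, −0.92 at the median and −0.50 at the highest. Every CD 3 rat was above the reference RNA and every BD 14 rat below it, with no overlap. Lrp5 fell by a log2 difference of −1.98 ± 0.25 (SE), which is 3.96-fold, with an adjusted p of 0.00174 by limma. BD 3, with a mean of 0.45, and CD 14, with a mean of −0.00, lay in between, so that 38.6% of the fall belonged to the diet step. With normexp the difference was −1.82. A slide block gave −1.51 with an unadjusted p of 0.0159 and an adjusted p of 0.783, and in a fit of CD 3 and BD 14 alone the adjusted p was 0.0665. Of the 21 Wnt signalling genes tested, out of 30 listed, Lrp5 was the only gene called, where 0.364% of all probes were called. At an unadjusted p under 0.05 the share was 14.3%, against 17.5% of all probes. The median of the list was 0.14 against 0.11 for all probes. Ctnnb1, which encodes β-catenin, differed by 1.58 with an adjusted p of 0.162, and the Wnt receptor gene Fzd4 by 1.01 with an adjusted p of 0.264. With normexp these were 0.47 and 0.15. The reference of Fzd4 was bright on 3 of 5 CD 3 and 1 of 6 BD 14 arrays, so its size is uncertain.

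**Figure D1:**
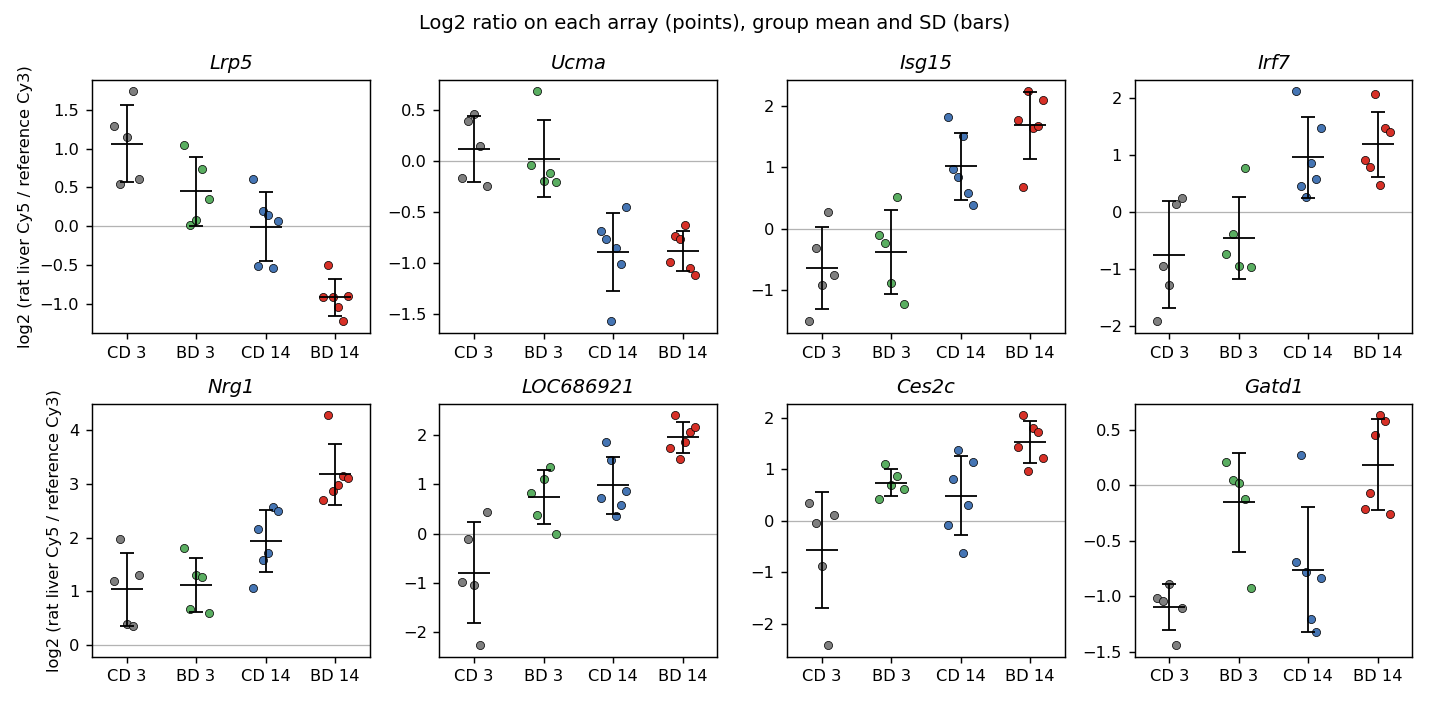
Log2 ratio of liver Cy5 to reference Cy3 for 8 genes on each array (points) in the 4 groups, with the group mean and SD as bars. Lrp5 steps down from CD 3 to BD 14 through both other groups, Ucma, Isg15 and Irf7 have the larger step along months of feeding, and Gatd1 has the larger step along diet.

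LOC686921, a gene without a named function in the files, had the next smallest adjusted p. It read −0.98, −0.12, −1.05, −2.27 and 0.43 in CD 3, and 1.51, 1.95 and 2.40 at the lowest, median and highest of BD 14. The groups did not overlap, but only 3 of 5 CD 3 arrays were bright for this probe, which passed the filter through BD 14. The rise was 2.75 ± 0.38 (SE), with an adjusted p of 0.00287 by limma. It was 0.80 with normexp and 2.73 with a slide block, and the reference was bright on 3 of 5 CD 3 and 0 of 6 BD 14 arrays. Another probe of the gene differed by 0.39. The sizes of the steps are not given, since the reference was dim.

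Nrg1 encodes neuregulin, a growth factor of the EGF family that binds ErbB receptors. In CD 3 it read 1.19, 1.97, 0.39, 0.36 and 1.30, and in BD 14 the lowest, median and highest values were 2.69, 3.03 and 4.27. Every BD 14 rat was above every CD 3 rat, but the probe was bright on 4 of 5 CD 3 arrays and passed the filter through BD 14. The reference was bright on 1 of 5 CD 3 and 0 of 6 BD 14 arrays, so the ratios give no level relative to it. Nrg1 rose by 2.13 ± 0.34 (SE) with an adjusted p of 0.0147, and by 0.61 with normexp. The call was lost in 8 of 37 alternative fits, among them those that left out CD 3 replicate 3 or 4 and that with a slide block, where the difference was 1.94.

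The 60-base probes that carry these calls are given so that the transcripts they read can be checked, each 5′ to 3′ as on the array.
Lrp5: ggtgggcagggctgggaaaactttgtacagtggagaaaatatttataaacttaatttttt
LOC686921: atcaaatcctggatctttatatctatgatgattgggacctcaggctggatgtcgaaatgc
Nrg1: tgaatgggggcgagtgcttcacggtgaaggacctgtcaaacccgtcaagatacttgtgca
Isg15: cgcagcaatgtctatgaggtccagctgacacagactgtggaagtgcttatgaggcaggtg
The Isg15 probe lies at chr5:173034674-173034733 on the minus strand and the Nrg1 probe at chr16:64093933-64093992 on the plus strand of rn4. The probe of LOC686921 has no position in the files.

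Of the 22 gene lists examined, that of interferon-stimulated genes held the most called genes. Of 43 genes listed, 41 were tested and 40 of them were higher in BD 14, with a median difference of 0.98 against 0.11 for all probes. At an unadjusted p under 0.05, 29 were higher and 1 was lower (73.2%, against 17.5% of all probes), and 4 passed the adjusted threshold, which 0.364% of all probes passed. Probes bright throughout BD 14 but not throughout CD 3 also passed the filter, which favours members higher in BD 14. Oasl was such a member, and how many others there were is not given here. The mean of the list was −0.73, −0.15, −0.71, 0.25 and 0.18 on CD 3 replicates 1 to 5. In BD 14 its lowest, median and highest values were 0.51, 0.90 and 1.01, so every BD 14 array lay above every CD 3 array. The gene with the highest signal in the list was Ifi27, which differed by 0.69 with an adjusted p of 0.119. With a slide block the count of 29 became 6 and the median 0.68, and with a random block for slide the count became 19. Over all 18656 probes, these fits gave 1124 and 1793 at such a p. The 4 called genes became 11 when CD 3 replicate 2 was left out and 1 when CD 3 replicate 4 was. Over all probes, 1469 were called without CD 3 replicate 2 and 3 without CD 3 replicate 4.

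Isg15 encodes a ubiquitin-like protein that is joined to other proteins in cells exposed to interferon. It read −1.51, −0.31, −0.91, 0.28 and −0.76 in CD 3 against 0.68, 1.73 and 2.24 at the lowest, median and highest of BD 14. The groups did not overlap. Isg15 rose by 2.33 ± 0.35 (SE), or 5.02-fold, with an adjusted p of 0.00913 by limma. It was bright on every array of both groups, its difference with normexp was 2.13, and under a slide block it was 2.72, with an unadjusted p of 0.00322 and an adjusted p of 0.718. The mean diet step was 0.46 and the mean time step 1.87. BD 3 was lower than CD 14 by 1.41, with an unadjusted p of 0.000653, and by 1.75 on slide D. Within the other slides the diet step was 1.34 on slide A and 0.64 on slide E, and the time step was 1.15 on slide C.

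Irf7 encodes a transcription factor that drives interferon genes. The study also measured it by real-time PCR. Its log2 ratio was −1.92, −0.94, −1.28, 0.15 and 0.25 in CD 3 and 0.48, 1.16 and 2.08 at the lowest, median and highest of BD 14. CD 3 replicates 4 and 5 came close to the lowest BD 14 array, without overlap. Irf7 rose by 1.94 ± 0.42 (SE), or 3.84-fold, with an adjusted p of 0.0465, and by 1.86 with normexp and 2.40 with a slide block. Its diet step was 0.27 and its time step 1.68, and BD 3 lay 1.41 below CD 14 with an unadjusted p of 0.00301. Within slides, the diet step was 1.36 on slide A and 0.48 on slide E, and the time step was 1.21 on slide C. The call was kept in 10 of 38 alternative fits, and leaving out any of several arrays ended it, CD 3 replicate 4 among them.

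Oasl belongs to the oligoadenylate synthetase family of antiviral genes. CD 3 gave 1.07, −2.58, 0.93, −0.01 and −0.92, and BD 14 gave 2.04, 2.29 and 4.28 at the lowest, median and highest. The CD 3 rats spread widely and still lay below all BD 14 rats, but only 3 of 5 CD 3 arrays were bright. Oasl rose by 2.90 ± 0.51 (SE) with an adjusted p of 0.0246, and its difference was 0.80 with normexp and 3.33 with a slide block. The reference was bright on 2 of 5 CD 3 and 1 of 6 BD 14 arrays. Lgals3bp encodes a secreted glycoprotein that binds galectins. It rose by 1.43 ± 0.29 (SE), from a range of −1.89 to −0.10 in CD 3 to −0.19 to 0.97 in BD 14, with an adjusted p of 0.0408, and its groups overlapped. With normexp it was 1.31, and with a slide block 1.17. Neither gene kept its call without CD 3 replicate 4.

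Just outside the threshold stood Ifi44l, higher by 2.10 with an adjusted p of 0.0516, and Usp18, which encodes the protease that takes ISG15 off proteins, higher by 2.58 with 0.0678. Ifi47, a gene for an interferon-inducible GTPase, was higher by 2.70 with an adjusted p of 0.0857. The gene that went the other way was Oas2, with a difference of −0.85 and an adjusted p of 0.157. In the list, the median diet step was 0.17 and the median time step 0.86. BD 3 was lower than CD 14 in 39 of 41 genes, with a median of −0.59 against −0.00 for all probes, and 8 genes were lower and 0 higher at an unadjusted p under 0.05, against 411 and 327 of the 18656 probes. On slide D, 35 of 41 genes were lower in BD 3, with a median of −0.43. The other slides gave medians of 0.69 for BD 3 against CD 3 (30 of 41 higher), 0.10 for BD 14 against CD 14 (27 higher) and 0.27 for CD 14 against CD 3 (26 higher).

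The promoters of the called genes that hold an interferon-type motif are shown next, since members of the list moved together. Promoters of 300 bases, from 250 before to 50 after the start, came from RefSeq (GRCr8). The motif searched was GAAA, then any 2 bases, then GAAA again, or TTTC in the same spacing on the other strand, and 1034 of 27457 promoters hold it (3.77%). Of the 41 interferon genes tested, 30 matched a promoter and 20 of these hold the motif (66.7%), as do 5 of 39 promoters of called genes (12.8%). The 5 are Irf7, Lgals3bp, Casp12, Lgals5 and Lgals9. Irf7 and Lgals3bp are themselves in the interferon list, and Lgals5 and Lgals9 are near-identical paralogs, so the 5 are not independent. Of the other called genes of the list, Oasl holds no match and Isg15 matched no promoter. Capitals mark the match in 3 of the 5.
Irf7: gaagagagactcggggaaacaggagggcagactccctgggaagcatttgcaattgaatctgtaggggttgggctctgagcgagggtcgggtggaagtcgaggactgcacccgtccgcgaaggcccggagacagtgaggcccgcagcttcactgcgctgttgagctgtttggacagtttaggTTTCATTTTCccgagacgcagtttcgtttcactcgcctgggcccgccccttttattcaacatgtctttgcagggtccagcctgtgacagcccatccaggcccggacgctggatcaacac
Lgals3bp: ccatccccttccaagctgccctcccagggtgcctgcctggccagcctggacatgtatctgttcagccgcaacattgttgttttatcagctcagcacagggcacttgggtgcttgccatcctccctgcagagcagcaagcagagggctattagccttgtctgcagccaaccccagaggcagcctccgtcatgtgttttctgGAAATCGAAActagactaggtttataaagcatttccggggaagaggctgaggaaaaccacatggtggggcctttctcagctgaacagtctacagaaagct
Casp12: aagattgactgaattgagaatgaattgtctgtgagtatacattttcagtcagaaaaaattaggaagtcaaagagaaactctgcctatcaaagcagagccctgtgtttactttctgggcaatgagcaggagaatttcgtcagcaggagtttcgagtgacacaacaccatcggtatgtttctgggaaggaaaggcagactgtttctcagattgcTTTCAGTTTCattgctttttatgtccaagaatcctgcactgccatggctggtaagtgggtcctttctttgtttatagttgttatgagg
They lie at chr1:205799974-205800273 on the minus strand, chr10:104127799-104128098 on the minus strand and chr8:10926938-10927237 on the plus strand of GRCr8. The match is a description of these letters, and binding was not measured.

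The steps of diet and time add up to the whole difference by construction, as the mean of BD 3 minus CD 3 and BD 14 minus CD 14, and the mean of CD 14 minus CD 3 and BD 14 minus BD 3. A probe was counted as mostly diet when the diet step held more than 75% of its difference, as mostly time when it held less than 25%, and otherwise as both. Of the 68 called probes, 0 were mostly diet, 10 were mostly time and 58 were both, and the median share of the diet step was 41.0%. All 4 steps had the sign of the whole difference in 59 of them. The share contains the difference that chose the probes, so these counts are partly set by the choice. Among the 276 probes whose groups did not overlap, 10 were mostly diet, 50 mostly time and 216 both, and among the 3269 at an unadjusted p under 0.05 the numbers were 153, 518 and 2598.

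**Figure D2:**
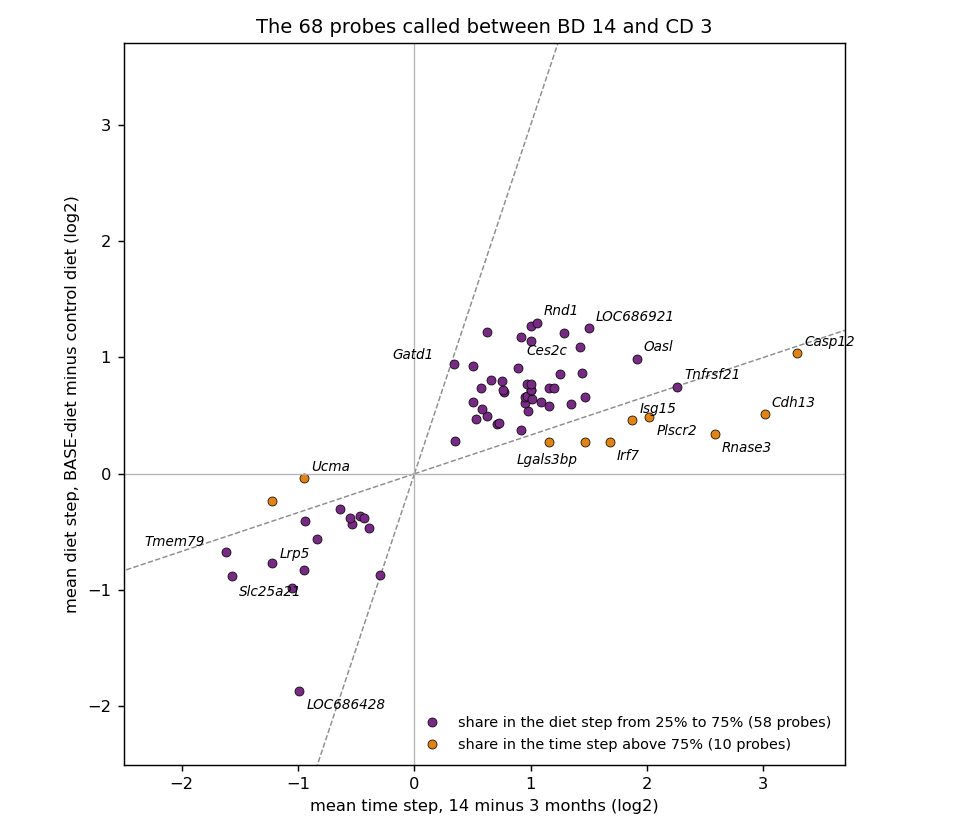
Mean time step (x axis) and mean diet step (y axis), in log2 units, of the 68 called probes (points). The dashed lines mark diet shares of 25% and 75%, and the 10 probes in the time sector include Casp12, Cdh13, Rnase3, Isg15, Irf7 and Ucma.

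No single comparison behind the steps gave a call, and the mean diet step and mean time step were not themselves tested. Limma called 0 probes (0%) for diet at 3 months, for diet at 14 months, for time on control diet and for time on BASE-diet. With an unadjusted p under 0.05 these comparisons gave, in this order, 1358 (7.28%), 846 (4.53%), 1913 (10.3%) and 1390 (7.45%) of the 18656 probes. These comparisons share arrays with each other and with the whole difference.

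The mean diet step minus the mean time step equals BD 3 minus CD 14, so this comparison tests which step was the larger. Its arrays do not enter the difference of BD 14 and CD 3, but they helped to choose the called probes through the residual variance of the fit. Probes called for a small spread therefore also tend to have a small p here, and the share among them is no independent test. By limma, 0 probes (0%) passed the adjusted threshold in BD 3 against CD 14, where the smallest adjusted p was 0.423, and 738 (3.96%) had an unadjusted p under 0.05. Of the 68 called probes, 16 (23.5%) had an unadjusted p under 0.05. In 14 of them the time step was the larger and in 2 the diet step, and all 16 kept their sign on slide D, whose arrays are part of this comparison. Under a slide block, 10 of the 68 had such a p. The interaction tests whether the diet step was the same at both times. It gave 0 probes (0%) after adjustment, with a smallest adjusted p of 0.763, and 889 (4.77%) before. Of the called probes 11 (16.2%) were among the latter, 4 with an interaction in the direction of the difference and 7 against it.

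The 10 called probes mostly along the time step report Isg15, Irf7, Lgals3bp, Casp12, Cdh13, Rnase3, Plscr2 and Ucma, and 2 have no gene symbol. Of these, 8 rose and 2 fell. Casp12 encodes a caspase linked to stress of the endoplasmic reticulum. The probe of Casp12 was bright on 4 of 5 CD 3 arrays and passed the filter through BD 14. Its reference was bright on 4 of 5 CD 3 and 3 of 6 BD 14 arrays, so the size of its difference is uncertain. Casp12 read 0.37, −2.39, −3.59, −1.51 and −1.94 in CD 3 and −0.50, 2.71 and 4.72 at the lowest, median and highest of BD 14. The lowest BD 14 rat lay within the range of CD 3. Casp12 rose by 4.33 ± 0.90 (SE), with an adjusted p of 0.0408, a diet step of 1.04 and a time step of 3.29. It was 1.93 with normexp and 1.94 with a slide block, both below those of Isg15. BD 3 was below CD 14 by 2.25, with an unadjusted p of 0.0199, and by 2.61 on slide D. Within the other slides the diet step had the opposite sign to its mean, −0.30 on slide A and −0.40 on slide E. The time step was 2.39 on slide C. The call of each of these genes except Isg15 was lost without CD 3 replicate 4.

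Cdh13, the gene of a cadherin anchored in the membrane by lipid, was called as higher with an adjusted p of 0.0408. Its probe was bright on 1 of 5 CD 3 arrays and its reference on 1 of 6 BD 14 arrays, so the size of its difference is not given. CD 3 replicate 1 lay above the lowest BD 14 array. Rnase3, a ribonuclease gene, was also called as higher. Its probe was bright on 1 of 5 CD 3 arrays and its reference on none of CD 3 or BD 14, so the size of its difference is not given.

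Ucma, which encodes a secreted protein known from cartilage, fell mostly along the time step. It read −0.17, 0.39, 0.46, 0.15 and −0.25 in CD 3 against −1.12, −0.88 and −0.63 at the lowest, median and highest of BD 14. The groups did not overlap, the values were close within each, and all arrays were bright. The fall was 1.99-fold, with an SE of 0.21 on the log2 scale and an adjusted p of 0.0408, and 4.2% of it belonged to the diet step. BD 3 was above CD 14 by 0.91, with an unadjusted p of 0.000255, and by 0.83 on slide D. The diet step was 0.50 on slide A and 0.05 on slide E, and the time step −0.20 on slide C. With the slide as a block, the difference between BD 14 and CD 3 was −0.22 with an unadjusted p of 0.582, while that between BD 3 and CD 14 was 0.81 with an unadjusted p of 0.00189.

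The called probe nearest to a pure diet step with a gene symbol was that of Gatd1, a gene of the glutamine amidotransferase-like family. CD 3 gave −1.01, −1.04, −0.89, −1.44 and −1.10, and BD 14 gave −0.26, 0.19 and 0.63 at the lowest, median and highest. The CD 3 values lay close together and below all of BD 14. Gatd1 rose by 1.28 ± 0.26 (SE), with an adjusted p of 0.0408 and 73.6% of the rise in the diet step. It was bright on 4 of 5 CD 3 arrays and passed the filter through BD 14, and its rise was 0.50 with normexp and 2.11 with a slide block. BD 3 was above CD 14 by 0.61, with an unadjusted p of 0.0318, but by 0.06 on slide D. The diet step was 1.14 on slide A and 1.45 on slide E, and the time step 0.27 on slide C. The highest diet share of all called probes, 74.4%, was that of A_64_P035832, which has no symbol. It fell by −1.16 ± 0.24 (SE) with an adjusted p of 0.0408, by −0.66 with normexp and by −0.55 with a slide block, and in Cy5 alone it differed by 0.14. Its interaction was 1.17 with an unadjusted p of 0.00233 and an adjusted p of 1.0. A_64_P020133, also without a symbol, rose by 1.84 ± 0.39 (SE), with 66.5% in the diet step, and by 1.31 with normexp and 1.76 with a slide block. Its mean was lowest in CD 3 (−2.10) and highest in BD 3 (0.00), with −0.60 for CD 14 and −0.26 for BD 14, and its interaction was −1.76 with an unadjusted p of 0.00393. None of these kept its call without CD 3 replicate 4.

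Further rises were those of Tnfrsf21, Rhob, Rnd1 and Pcsk5. Tnfrsf21 encodes a death receptor of the TNF receptor family. It read −1.28, −1.32, −2.17, −1.14 and −0.15 in CD 3 and 0.66, 1.40 and 3.57 at the lowest, median and highest of BD 14. The groups were apart, and 4 of 5 CD 3 arrays were bright. Tnfrsf21 rose by 3.01 ± 0.52 (SE), or by 1.48 with normexp and 1.64 with a slide block, with an adjusted p of 0.0246. BD 3 lay 1.50 below CD 14, with an unadjusted p of 0.00868. Rhob and Rnd1 encode small GTPases. Rhob rose by 2.50 ± 0.47 (SE), from −2.40 to −0.36 in CD 3 to 0.17 to 3.17 in BD 14, and its other probe differed by 0.98. It was bright on 4 of 5 CD 3 arrays, and its rise was 1.84 with normexp and 1.90 with a slide block. Rnd1 was called as higher, but its probe was bright on 1 of 5 CD 3 arrays and its reference on 1 of the CD 3 and BD 14 arrays, so the size of its difference is not given. Pcsk5 encodes a convertase that cuts precursors of secreted proteins, and its called probe rose by 1.74 while its other probe differed by −0.65. The rise was 0.35 with normexp and 0.37 with a slide block, and the reference was bright on 2 of 5 CD 3 and 0 of 6 BD 14 arrays.

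Ces2c encodes a carboxylesterase of the liver. It read 0.35, −0.04, −0.87, −2.42 and 0.12 in CD 3 and 0.97, 1.58 and 2.05 at the lowest, median and highest of BD 14. All arrays were bright and the groups did not overlap, with CD 3 replicate 4 the lowest of all. Ces2c rose by 2.11 ± 0.41 (SE), or by 1.41 with normexp and 2.42 with a slide block, with an adjusted p of 0.0372, and its diet step of 1.18 was slightly larger than its time step of 0.92. Mthfd2, for a mitochondrial enzyme of folate metabolism, rose by 2.51 ± 0.51 (SE), or by 0.69 with normexp and 3.08 with a slide block, and its other probe differed by 1.52. Its probe was bright on 3 of 5 CD 3 arrays and its reference on 0 of 6 BD 14 arrays. The ubiquitin ligase gene Neurl3 rose by 2.12, the zinc-finger gene Hivep2 by 1.91, the helicase gene Znfx1 by 1.74 and Enc1, for an actin-binding protein of the kelch family, by 1.80. In the same order, these were 0.97, 0.47, 0.50 and 1.63 with normexp and 0.85, 0.47, 1.02 and 0.80 with a slide block, and all but Enc1 were dim on 1 CD 3 array. In BD 14 the reference was bright on 3 of 6 arrays for Neurl3, 1 of 6 for Hivep2 and 4 of 6 for Znfx1. In CD 3 it was bright on 4, 3 and 5 of 5 arrays, so the sizes for these genes are uncertain. Adjusted p of Neurl3, Hivep2, Znfx1 and Enc1 ran from 0.0372 to 0.0465. Neither they nor Tnfrsf21, Rhob, Rnd1 and Pcsk5 kept their calls without CD 3 replicate 4.

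The galectin genes Lgals9 and Lgals5 rose by 1.56 and 1.65, with adjusted p of 0.0462 and 0.0372, by 1.30 and 1.46 with normexp and by 2.65 and 2.75 with a slide block. They are near-identical paralogs, and which of them the RNA came from is uncertain. In 5 called genes, Ube2v1, Dctn4, Tacc1, Pcsk5 and Tk2, another probe of the gene had a difference of the opposite sign. It was −0.65 for Pcsk5, but near 0 for Tacc1 (−0.01), Dctn4 (−0.11) and Tk2 (−0.16). The 4 other probes of Ube2v1 ran from −0.06 to 1.05.

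Of the 17 falls, 15 were bright on every BD 14 array. LOC686428 was called as lower with an adjusted p of 0.0372. Its probe was bright on 1 of 6 BD 14 arrays and its reference on 1 of 5 CD 3 and 1 of 6 BD 14 arrays, so the size of its difference is not given. Slc25a21, for a mitochondrial carrier of dicarboxylates, fell by −2.44 ± 0.54 (SE), from −1.15 to 1.41 in CD 3 to −4.27 to −1.25 in BD 14, with 4 of 6 BD 14 arrays bright. It was −0.94 with normexp and −1.83 with a slide block. The membrane protein gene Tmem79 fell by −2.29 ± 0.48 (SE), from 0.61 to 2.71 in CD 3 to −1.79 to 0.08 in BD 14, with −1.35 under normexp and −0.72 under a slide block. Slc1a2, the gene of a glutamate transporter, fell by −1.40 ± 0.30 (SE), and its other probe differed by −1.30. With normexp the fall was −0.50, and with a slide block −1.46.

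Smaller falls came from Pfn3, E4f1, Vps37b and Rprd1a. Pfn3 encodes a profilin, a protein that binds actin, and it fell by −1.35 ± 0.25 (SE), from 0.36 to 1.93 in CD 3 to −0.50 to 0.10 in BD 14. Its other probe differed by −1.14. Vps37b, for a subunit of the ESCRT machinery that sorts membrane proteins, fell by −0.94 ± 0.18 (SE). E4f1, for a transcription factor with ubiquitin ligase activity, fell by −0.96 ± 0.21 (SE), and Rprd1a, for a protein that binds the tail of RNA polymerase II, by −0.93 ± 0.20 (SE). For Pfn3, Vps37b, E4f1 and Rprd1a, the falls were −0.90, −0.83, −0.81 and −0.70 with normexp and −1.28, −0.90, −0.37 and −1.01 with a slide block. Their adjusted p lay between 0.0372 and 0.0478, and without CD 3 replicate 4 no fall but that of Lrp5 was called.

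Among targets of PPARα, 40 of 40 were tested and none was called. At an unadjusted p under 0.05, 7 were higher in BD 14 and 0 lower (17.5%, as among all probes), with a median of 0.45. The mean of the list was −0.28, 0.11, −0.52, −0.93 and −0.38 in CD 3 and −0.53, 0.13 and 0.55 at the lowest, median and highest of BD 14. The groups overlapped. The median diet step was 0.46 and the median time step −0.11. BD 3 was higher than CD 14 in 34 of 40 genes, with a median of 0.45 against −0.00 for all probes, and 13 genes were higher and 1 lower at an unadjusted p under 0.05, against 327 and 411 of the 18656 probes. That median was 0.67 on slide D, where it leaned on CD 14 replicate 3. The list mean was −1.51 on that array and −0.20 and −0.04 on CD 14 replicates 1 and 2. The median diet step was 0.62 on slide E but 0.07 on slide A, below the 0.28 of all probes there, and the median time step on slide C was 0.00. The count of 7 rose to 15 when CD 3 replicate 2 was left out, with 6 genes called. In that fit, 4865 of all 18656 probes had such a p and 1469 were called. The count was 4 without replicate 4 of CD 3 or of BD 14 and 1 under a slide block. Over all probes these fits gave 2411, 3028 and 1124 at such a p, in the same order. The count of 13 was 7 without CD 14 replicate 3 or 5.

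Acot1, which encodes a thioesterase that cleaves acyl-CoA, was the member nearest to the threshold. It read −1.49, −1.59, −2.90, −2.07 and −1.69 in CD 3 and −1.78, 1.04 and 2.04 at the lowest, median and highest of BD 14. In BD 14 only replicate 2, at −1.78, and replicate 5, at −0.20, were below the reference, and replicate 2 lay within the range of CD 3. The difference was 2.59 ± 0.61 (SE), with an adjusted p of 0.0544. Its diet step was 2.92 and its time step −0.34, and BD 3 was above CD 14 by 3.26, by 2.44 on slide D. The diet step was 2.46 on slide A and 4.39 on slide E, and the time step −0.53 on slide C. Fabp1, which encodes the main fatty acid binding protein of the liver and had the highest signal in the list, differed by 0.86 with an adjusted p of 0.101, and by 0.08 with a slide block. Cpt1a, for the enzyme that admits fatty acids to mitochondria, differed by 1.54 with an adjusted p of 0.106. The fatty acid uptake gene Cd36 differed by 1.94 with an adjusted p of 0.135, and by 0.68 with a slide block. Its diet step was −0.07 and its time step 2.01, with BD 3 below CD 14 by 2.08.

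**Figure D3:**
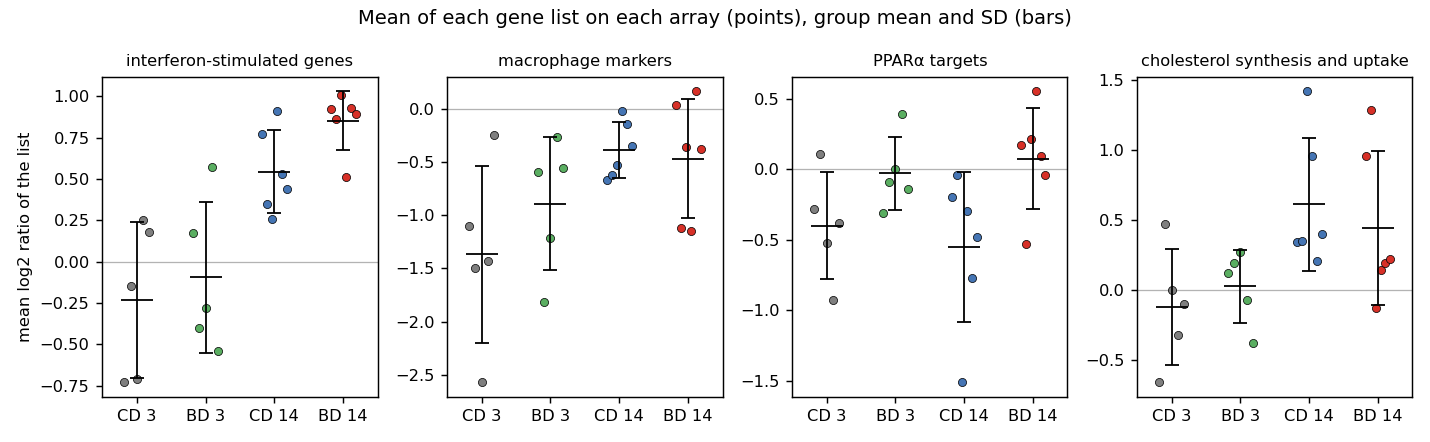
Mean log2 ratio of 4 gene lists on each array (points), with the mean and SD of each group as bars. Interferon-stimulated genes part CD 3 from BD 14 without overlap, while the other lists overlap between these groups.

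Of the genes of cholesterol synthesis and uptake, all 24 were tested, 18 were higher in BD 14, 6 of them and none of the lower at an unadjusted p under 0.05 (1 in 4, against 17.5% of all probes), and none was called. The median was 0.42 (0.21 to 0.61 with an array left out), with a median diet step of −0.05 and a median time step of 0.54. The list mean was −0.66, 0.47, 0.00, −0.32 and −0.10 in CD 3 and −0.13, 0.20 and 1.29 at the lowest, median and highest of BD 14, with overlap. Hmgcs1 had the highest signal. BD 3 was lower than CD 14 in 20 of 24 genes, with 7 lower and 0 higher at an unadjusted p under 0.05, against 411 and 327 of the 18656 probes. The synthesis gene Msmo1 gave −1.32 there with an unadjusted p of 0.000173, and Sqle −2.02 with 0.0102. On slide D, 22 of 24 genes were lower in BD 3, with a median of −0.65. There the list mean was 1.42 on CD 14 replicate 3, and 0.34 and 0.35 on CD 14 replicates 1 and 2. The median diet step was 0.77 on slide A (18 of 24 higher) and −0.11 on slide E, and the median time step on slide C was 0.46.

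Of 20 genes of lipogenesis and desaturation, 18 were tested and 16 were higher in BD 14, with a median of 0.55. An unadjusted p under 0.05 was found for 6 of the higher genes and none of the lower (33.3%, against 17.5% of all probes). None of the 18 was called. The desaturase genes Fads1 and Fads2 differed by 1.62 and 1.36, with adjusted p of 0.171 and 0.179. The median diet step was 0.06 and the median time step 0.51. BD 3 was lower than CD 14 in all 18 genes on slide D, with a median of −0.90. There the list mean was 2.43 on CD 14 replicate 3, and 0.68 and 1.30 on CD 14 replicates 1 and 2. On slide E, however, BD 14 was higher than CD 14 in 17 of 18, with a median of 0.57. The medians were 0.41 for BD 3 against CD 3 on slide A and 0.19 for CD 14 against CD 3 on slide C.

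The antioxidant list, 35 of 36 genes tested, gave 27 higher in BD 14, 6 of them and none of the lower at an unadjusted p under 0.05 (17.1%, against 17.5% of all probes), and none was called. Its median was 0.36 (0.21 to 0.50 with an array left out), with a diet step of 0.21 and a time step of 0.14. The list mean was −1.03 on CD 3 replicate 4 and −0.44 to 0.05 on the other CD 3 arrays. Txnrd1, for thioredoxin reductase, differed by 1.78 with an adjusted p of 0.089, and its other probe by 0.00. The haem oxygenase gene Hmox1 differed by 1.22 with an adjusted p of 0.174, and by −0.92 with a slide block. The study measured Gpx1, for a glutathione peroxidase, by real-time PCR as well. On the arrays, Gpx1 read 0.03, 0.11, −0.19, 0.22 and −0.10 in CD 3. In BD 14 its lowest, median and highest values were 0.20, 0.61 and 1.28, and only the lowest lay within the range of CD 3. The difference was 0.65 ± 0.26 (SE), with an adjusted p of 0.194, and the steps were of opposite sign, −0.18 for diet and 0.83 for time. BD 3 was below CD 14 by 1.01, with an unadjusted p of 0.000678.

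Prodh, the proline dehydrogenase gene, is the last gene that the study measured by real-time PCR. Its brighter probe read 0.31, 0.44, 1.28, 1.55 and 0.96 in CD 3 and −1.08, −0.42 and 0.03 at the lowest, median and highest of BD 14. The groups did not overlap. The difference was −1.38 ± 0.35 (SE), with an adjusted p of 0.0749. The other probe differed by 0.23, and with the slide as a block the difference of the brighter probe was −0.02.

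Most markers of macrophages had higher means in BD 14 than in CD 3, but without a call and not within slides. In these bulk samples, the number of such cells and the RNA per cell cannot be told apart. Of 20 markers, 19 were tested and 18 were higher, 11 of them and none of the lower at an unadjusted p under 0.05 (57.9%, against 17.5% of all probes), with a median of 0.94. None was called. The list mean was −1.10, −1.50, −2.57, −1.43 and −0.25 in CD 3 and −1.15, −0.37 and 0.16 at the lowest, median and highest of BD 14. The groups overlapped, with CD 3 replicate 5 above BD 14 replicates 2, 3, 4 and 6 and CD 3 replicate 1 above replicates 2 and 4. C1qb had the highest signal. Cd68, Cd163, Clec4f and C1qa, which define these cells, were bright on all CD 3 and BD 14 arrays, with differences of 1.01, 1.02, 0.89 and 1.15 and adjusted p between 0.133 and 0.282. Vsig4 differed by 1.69 with an adjusted p of 0.132. The direction did not hold within slides. With the slide as a block the median was −0.43, with 1 gene at an unadjusted p under 0.05, and on the slides with 2 groups it was 0.02 for BD 3 against CD 14, −0.59 for BD 14 against CD 14, 0.05 for BD 3 against CD 3 and −0.08 for CD 14 against CD 3. The count of 11 fell to 6 when CD 3 replicate 3 was left out, and to 7 after median centring or when CD 3 replicate 2 or BD 14 replicate 5 was left out. In the same order, these fits gave 3061, 3279, 4865 and 3064 of all 18656 probes at such a p. The part of these cells in the rise of interferon-stimulated genes was not tested.

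Genes of MHC and antigen processing, part of which respond to interferon, were higher in all 14 tested of 16, 5 of them at an unadjusted p under 0.05 (35.7%), with a median of 0.63. None was called. The list mean was −0.51, 0.16, −1.77, −0.69 and −0.11 in CD 3 and ran from −0.90 to 0.60 in BD 14, with overlap. Tap1, for a subunit of the peptide transporter, differed by 1.32, and the immunoproteasome gene Psmb8 by 1.57, with adjusted p of 0.14 and 0.172. BD 14 was below CD 14 in all 14 genes on slide E, with a median of −0.58, while the medians were −0.09 on slide D, 0.20 on slide A and −0.20 on slide C. Leukocyte markers gave 15 of 17 higher, 2 of them at an unadjusted p under 0.05 (11.8%, against 17.5% of all probes), with a median of 0.58. With an array left out, that median ran from 0.14 to 0.79. Of the 26 markers listed, Cd3e, Cd79a, Cd79b and Ms4a1, among others, were not bright on every array of either group. All 17 were lower in BD 14 than in CD 14 on slide E, with a median of −0.91, while the medians were 0.04 on slide D, −0.20 on slide A and 0.42 on slide C.

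The hepatocyte markers checked the tissue. All 18 were tested, with Ttr the one of highest signal, 14 were higher in BD 14 and 3 of these passed an unadjusted p of 0.05 (16.7%, against 17.5% of all probes). Their median was 0.47, and it ran from 0.11 to 0.76 with an array left out. Their mean on CD 3 replicate 4 was −1.83 against −0.42 to 0.41 on the other CD 3 arrays. Acute phase and stress genes were higher in 25 of 28, 9 of them and none of the lower at an unadjusted p under 0.05 (32.1%), with a median of 0.56. The list mean was 1.78 on BD 14 replicate 2 and −0.04 to 0.70 on the other BD 14 arrays. Lcn2, for an iron-carrier protein of the acute phase, differed by 2.69 with an adjusted p of 0.136, and haptoglobin (Hp) by 0.92 with 0.186. With a slide block Hp differed by −0.43 and the median of the list was 0.19, and on slide E, for BD 14 against CD 14, they were −1.02 and −0.15. The list medians were −0.06 on slide D, 0.47 on slide A and 0.17 on slide C. Among 16 stellate cell and collagen genes, 15 were higher and 4 of these had an unadjusted p under 0.05 (1 in 4), with a median of 0.28. Reln, for an extracellular matrix protein made by stellate cells, differed by 1.22 with an adjusted p of 0.0678.

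Among genes of xenobiotic metabolism, 2 of the 17 tested were higher and 3 lower at an unadjusted p under 0.05 (29.4%, against 17.5% of all probes), with a median of 0.12. The P450 genes Cyp1a2, Cyp2d1 and Cyp3a9 were the lower ones, with differences of −1.07, −0.74 and −1.78 and adjusted p of 0.134, 0.125 and 0.191. BD 3 was above CD 14 in 16 of the 17, and Nr1i3, for the receptor CAR, differed there by 2.02 with an unadjusted p of 0.000372. Of 17 clock genes, 4 were higher and 1 lower at an unadjusted p under 0.05 (29.4%). The repressors Nr1d1 and Nr1d2 differed by 1.13 and 1.32 and Cry1 by −1.63, with adjusted p of 0.101, 0.109 and 0.139. With a slide block Cry1 differed by 0.15. The hour of sampling of single rats is not in the labels.

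For the remaining lists, the comparison is with 17.5% and a median of 0.11 for all probes. With an unadjusted p under 0.05, 1 of 19 p53 and senescence genes was found (median 0.34), with Cdkn2b at 1.21, 1 of 14 cell cycle genes (0.10), 1 of 9 endothelial markers (0.18) and 1 of 7 bile duct markers (0.52). Growth hormone and male-pattern genes gave 2 of 18, with a median of −0.01. Adipose markers gave 1 of 3 (0.53), and red cell and pancreas markers gave 0 of 6 each, with medians of −0.22 and −0.33. Red cell markers were lower in BD 3 than in CD 14 in 6 of 6, with a median of −1.05 against −0.00 for all probes. At an unadjusted p under 0.05, 5 of them were lower in that comparison, against 411 of the 18656 probes. Limma called none of the genes in these lists.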

How the data were processed

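The deposited scanner output holds raw and processed intensity values of each spot, which the authors made with Agilent Feature Extraction by subtracting background and normalizing the dyes with linear Lowess. Per the file headers, its log10 value is the log of the ratio of the processed channels, Cy5 over Cy3, and the software version is 10.10.1.1 where the labels give 10.7.3.1. The authors also deposited a table of log2 values, which was not used here. From the log10 ratios, log2 ratios were computed, and each probe was averaged over its spots, without control spots and without non-uniform spots. A probe was bright on an array when a share of at least 0.5 of its spots had that Cy5 flag. No pseudocount or scaling between arrays was added, and 598 tested probes lacked a value on some array. Positions are on rn4. Symbols came from a reference table for 18005 probes and from the files for 5148, and 7214 have none.

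The comparisons used limma 3.58.1 under R 4.3.3, a fit of 4 means with eBayes (prior df 3.36) and Benjamini-Hochberg adjustment over the 18656 probes at 0.05. P-values are two-sided. Summaries used Python 3.11.15, numpy 2.4.6, pandas 2.3.3 and matplotlib 3.10.9. The steps were tested on simulated data. The members, the 22 lists and the rules were chosen with earlier results of these data known.

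Genes were named by a rule. It took, among called probes without overlap, the 15 largest rises and the 10 largest falls with a symbol, called members of lists, the up to 4 members of each list with the smallest p, GPX1, IRF7 and PRODH, and the 3 called probes with the largest difference between BD 3 and CD 14 in each direction. Some of the genes so chosen are not reported here. Other genes (A_64_P035832, Plscr2, Lgals5, Lgals9, Ube2v1, Dctn4, Tacc1, Tk2, Oas2, Ifi27 and further list members) were chosen after their values were seen. The main probe of a gene has the highest mean Cy5 signal.

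Alternatives were normexp with an offset of 50 and loess, Cy5 alone after quantile normalization, median centring, other detection filters, non-uniform spots kept, spots with surrogate values in both channels left out, an intensity trend, array weights, the slide as a block or random block, a replicate block, only CD 3 and BD 14 in the fit, the main probe of each gene, Tukey's HSD after the F test of the methods, and leaving out each array.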

Additional observations from a re-analysis of the deposited data

Results flagged for a closer look

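Chance flags about 1 in 20 groups, and 116 groups of arrays were tested for an array far from the rest, of which 11 were flagged. In BD 14, replicate 2 stood apart with a log2 ratio of 3.17 for Rhob, above the other rats. It was also above them with 4.86 for Rnd1 and 4.27 for Nrg1 and below them with 0.29 for Cdh13, but the reference of these probes was bright on 1 array of BD 14 at most, so these ratios give no level relative to it. Replicate 6 stood apart with 4.28 for Oasl, whose reference was bright on 1 of 6 arrays, and with a mean of −2.65 for the pancreas markers, and replicate 4 with a mean of 0.51 for the interferon-stimulated genes. In CD 3, replicate 1 stood apart with 1.48 for Rnase3, whose reference was dim on all arrays of the pair, and with a median Cy5 signal of 488 after background subtraction and a mean of 0.23 for the bile duct markers, and replicate 4 with a mean of −0.66 for the xenobiotic genes.

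For 4 of the called probes named by the rule the diet step differed between 3 and 14 months by limma's interaction at an unadjusted p under 0.05. The interactions were 1.15 for Nrg1, 1.41 for Hivep2, 2.22 for Cdh13 and −1.76 for A_64_P020133. Only for the last was the reference bright on every CD 3 and BD 14 array, and the sizes of the others are uncertain. None passed after adjustment over all probes, and what lies behind these flags was not tested.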

How the results depend on the processing

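The count of 68 called probes moved with most choices. It was 41 with normexp and loess, 562 in Cy5 alone, 42 with the main probe of each gene, 12 where probes had to be bright on every array of both groups, 4 with no detection filter and 3 with array weights. It was 0 with the slide as a block, 2 with the slide as a random block and 0 with only CD 3 and BD 14 in the fit. Tukey's HSD after the F test of the methods gave 1 with Benjamini-Hochberg adjustment and 1118 without. Leaving out each array gave 3 to 1469. The cause was not tested, beyond there being fewer probes or arrays. Median centring gave 57, a filter over all 4 groups 61, an intensity trend 66, and non-uniform spots kept or surrogates left out 67. An alternative chosen after seeing the data, which leaves out the 2 arrays with over 1% of non-uniform spots, gave 58.

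With the replicate block the count was 4. Arrays with the same replicate number deviated from their group means with correlations of −0.02, 0.11, −0.0362, −0.059 and 0.00353, so the numbers do not pair the rats.

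The count mostly along diet, 0, was 2 with normexp, 3 in Cy5 alone, 1 with median centring, 4 with the slide block, 1 with the random block and 0 to 2 with an array left out. The count mostly along time, 10, was 6 with both groups bright and 9 to 12 with an array left out, and that along both, 58, was 27 and 56 to 59. The 16 probes with BD 3 and CD 14 apart were 9 with both groups bright, 10 with the slide block and 12 to 17 with an array left out. The 11 with an interaction were 6 in Cy5 alone, with both groups bright and with the slide block, and 7 to 14 with an array left out.

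Of 1233 values of 33 named probes under the alternatives, 699 kept their side of the threshold, 533 kept only the direction, 1 passed it anew and none of the called ones reversed. Of 836 values of the 22 list medians, 8 moved by more than the spread. With an array left out, medians ran from 0.27 to 0.58 for PPARα targets and from 0.33 to 0.78 for lipogenesis and desaturation. They ran from 0.58 to 1.27 for macrophage markers and from 0.23 to 0.45 for stellate cell and collagen genes. Low signal on CD 3 replicate 4 limits all probes dim there. The slide and the groups overlap so far that they can be told apart only in part, and age and months of feeding not at all.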
